A study of Mus musculus with 7 samples.

Results

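The serum amyloid A family of the mouse is described here in the terminal ileum, where the small intestine joins the colon. Its members are the 4 genes Saa1, Saa2, Saa3 and Saa4, and they were chosen by name from the platform annotation of the array. The array held 6 probe sets (groups of short probes for 1 transcript) annotated to them, out of 45101 probe sets in all and 18193 genes with a probe set of their own. Ileal RNA from 7 male mice of strain C57BL6J aged 8 weeks was hybridised, 1 array per mouse, labelled as biological replicates. In the penicillin group 4 mice had received low-dose penicillin at 6.7 mg/L from birth. The 3 control mice were given none. All 7 mice were weaned onto chow at 4 weeks and were moved at 6 weeks to a high-fat diet that supplied 45% of calories as fat, so the comparison is one within high-fat feeding. The labels name neither litter, cage nor array batch, and effects of these cannot be told apart from the treatment.

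Serum amyloid A proteins are small secreted apolipoproteins that bind lipids, retinol and lipoprotein particles. In the liver Saa1 and Saa2 are induced within hours of an inflammatory stimulus and circulate on high-density lipoprotein. Saa3 is known from macrophages, adipose tissue and epithelia of the mouse, and Saa4 is a constitutive liver product. In the mouse ileum epithelial Saa1 and Saa2 are known to respond to the cytokine IL-22 and to bacteria that attach to the epithelium, and to promote IL-17 production by local T cells.

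In penicillin mice both probe sets of Saa1, the probe set of Saa2 and the probe set of Saa3 were lower than in every control mouse, while both probe sets of Saa4 overlapped between the groups. At the probe set of Saa1 proper the difference was -3.65 ± 0.94 on the log2 scale (SE, 12.5-fold lower). Saa2 differed by -2.02 ± 0.51 (SE, 4.04-fold lower) and Saa3 by -1.40 ± 0.41 (SE, 2.64-fold lower). None of the 6 probe sets passed in limma at an adjusted p under 0.05. Mice of the penicillin group differed widely among themselves, with Saa1 between 1.99-fold and 53.7-fold below the control mean. A signal from whole tissue cannot tell fewer expressing cells from less RNA per cell.

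**Figure D1:**
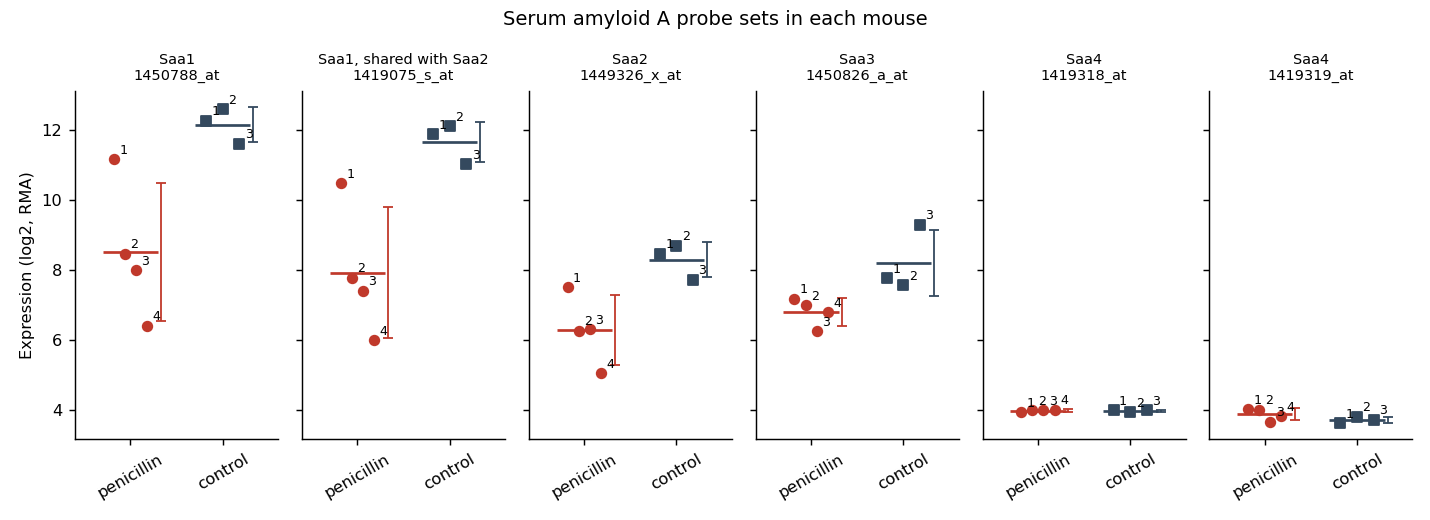
Log2 expression (RMA) of the 6 serum amyloid A probe sets in 4 penicillin mice (red circles) and 3 control mice (dark squares), numbered by replicate. Horizontal lines are group means and bars are SD; the 4 probe sets of Saa1, Saa2 and Saa3 do not overlap between the groups, and those of Saa4 do. Levels of different probe sets are not on a common scale.

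The probe set of Saa1 proper, 1450788_at, had a log2 level of 11.17, 8.47, 8.00 and 6.41 in penicillin mice 1, 2, 3 and 4, against 12.27, 12.61 and 11.61 in control mice 1, 2 and 3. The groups did not overlap, yet the highest penicillin mouse lay only 0.44 below the lowest control mouse, and 2.70 above the next penicillin mouse. The group means were 8.51 ± 1.98 (SD, n = 4) in penicillin mice and 12.2 ± 0.508 (SD, n = 3) in control mice. Relative to the control mean, Saa1 was 1.99-fold lower in penicillin mouse 1, 12.9-fold lower in mouse 2, 17.9-fold lower in mouse 3 and 53.7-fold lower in mouse 4. The limma adjusted p over all 45037 probe sets was 0.401, with an unadjusted p of 0.00458. An exact two-sided permutation test over the 35 assignments of the 7 arrays gave p = 0.0571 (difference -3.65, lower in 4 of 4 penicillin mice than in any control mouse). The smallest p that test allows is 0.0286.

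A second probe set that the annotation assigns to Saa1, 1419075_s_at, carries the accession of a transcript that RefSeq assigns to Saa2, and its suffix marks probes that match more than 1 transcript. RefSeq also lists each of the genes as an older name of the other. This probe set is therefore described as one that Saa1 and Saa2 may share. Its level was 10.49, 7.78, 7.41 and 6.00 in penicillin mice 1 to 4, against 11.88, 12.11 and 11.02 in control mice 1 to 3. The mice stood in the same order as for 1450788_at, and within a mouse the distance between the 2 probe sets varied by only 0.30 over the 7 mice. It differed by -3.75 ± 0.90 (SE, limma adjusted p = 0.364), the most negative difference of all probe sets tested, with 1450788_at the next.

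Saa2, at 1449326_x_at, whose suffix warns of cross-hybridising probes, had 7.52, 6.26, 6.31 and 5.04 in penicillin mice 1 to 4, against 8.47, 8.70 and 7.73 in control mice 1 to 3. Penicillin mouse 1 was again highest in its group and mouse 4 lowest, and the gap between the groups was 0.21. The means were 6.28 ± 1.01 (SD, n = 4) in penicillin mice and 8.30 ± 0.506 (SD, n = 3) in control mice, with a limma adjusted p of 0.392. Because the transcripts of Saa1 and Saa2 are near-identical, the 3 probe sets are not independent readings and signal of one gene cannot be separated from that of the other.

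Saa3, at 1450826_a_at, had 7.18, 6.997, 6.25 and 6.79 in penicillin mice 1 to 4, against 7.76, 7.56 and 9.30 in control mice 1 to 3. Here the wider spread lay in the control group, where mouse 3 alone stood 1.53 above the next mouse. The SD among penicillin mice was smaller, though above the median of 0.086 over all probe sets in that group. The means were 6.80 ± 0.404 (SD, n = 4) in penicillin mice and 8.21 ± 0.949 (SD, n = 3) in control mice. The limma adjusted p was 0.452, and the exact permutation test gave p = 0.0286, the smallest it can give, for a difference of -1.40 with 4 of 4 penicillin mice below every control mouse. Without control mouse 3 the difference was -0.86 ± 0.24 (SE, limma adjusted p = 0.339), and still no penicillin mouse reached a control mouse, at a maximum of 7.18 against a minimum of 7.56.

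The signal of Saa4 overlapped between the groups. Probe set 1419318_at had 3.94, 3.99, 3.99 and 4.01 in penicillin mice 1 to 4, against 3.99, 3.94 and 3.99 in control mice 1 to 3, a difference of 0.01 ± 0.05 (SE, limma adjusted p = 0.963). Probe set 1419319_at had 4.02, 4.01, 3.66 and 3.82 in penicillin mice, against 3.63, 3.81 and 3.72 in control mice, a difference of 0.16 ± 0.10 (SE, limma adjusted p = 0.640). Their mean levels lay near the 25th percentile of all probe sets (log2 3.98), where RMA cannot tell weak expression from background. With a filter at that percentile 5 of the 6 probe sets would have been tested.

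Among the 6 probe sets 0 were called in limma, where 0.0355% of all probe sets were called lower in penicillin mice and 0.00222% higher. At an unadjusted p under 0.05 there were 4 of 6, all lower, against 4.43% of all probe sets lower and 4.34% higher. Groups did not overlap, with penicillin mice lower, in the same 4 of 6, against 3.68% of all probe sets. The median difference was -1.71 over the 6 and 0.003 over all 45037. These shares describe the family, whose members were picked with earlier results known and include probe sets that share transcripts.

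**Figure D2:**
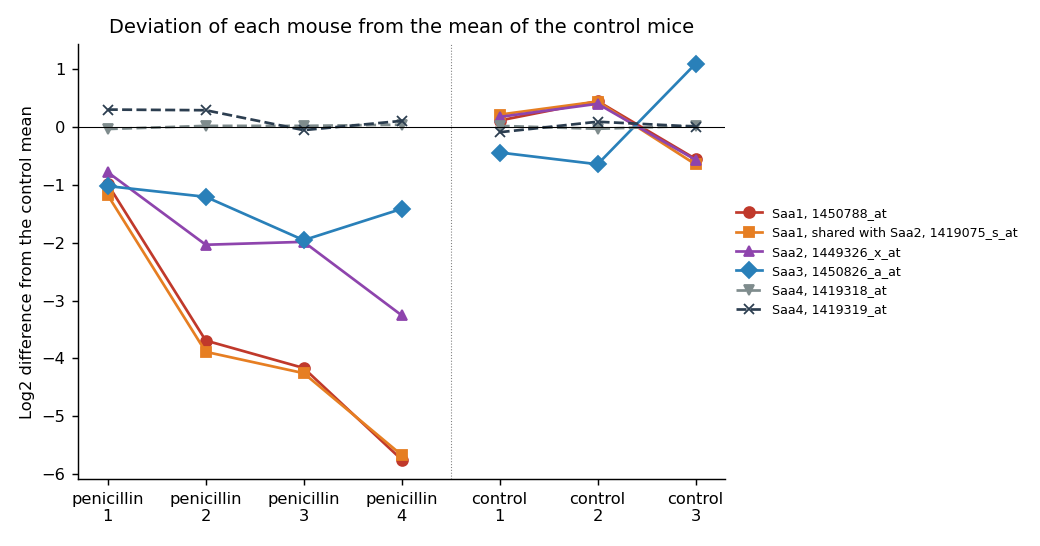
Log2 difference of each mouse from the mean of the 3 control mice, for the 6 probe sets; lines only join points of 1 probe set, since the mice have no order. The 3 probe sets of Saa1 and Saa2 are highest in penicillin mouse 1 and lowest in mouse 4 among penicillin mice, Saa3 stays between -1.96 and -1.02 in those mice, and Saa4 stays near 0.

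The probe sets of Saa1 and Saa2 varied together from mouse to mouse, apart from penicillin mice 2 and 3, which changed places by a small margin at Saa2, while Saa3 and Saa4 departed from them. Step sizes of different probe sets, such as the smaller ones of Saa2, are not on a common scale. In penicillin mouse 4 Saa1 (1450788_at) stood at -5.75 relative to the control mean, while Saa2 stood at -3.25 and Saa3 at -1.42. In penicillin mouse 1 the 3 genes lay at similar distances, with Saa1 at -0.99, Saa2 at -0.78 and Saa3 at -1.02. Saa3 was lowest in penicillin mouse 3, at -1.96, where Saa1 was not lowest. In control mouse 3 the genes went apart: Saa1 and Saa2 were at their lowest of the control group, at -0.55 and -0.57, while Saa3 was at its highest, at 1.09. On Saa1 the 7 mice form a higher cluster of 4, the 3 control mice and penicillin mouse 1, and a lower cluster of 3. No correlation between members is therefore tested.

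The spread of Saa1 between penicillin mice was among the widest of the array. Its SD of 1.98 at 1450788_at ranked 2 among 45037 probe sets in that group, and that of 1419075_s_at, 1.88, ranked 3. Saa2, with 1.01, ranked 19, and Saa3, with 0.40, ranked 277. An SD of at least 1 among penicillin mice was seen in 3 of the 6 probe sets and in 0.0422% of all. The range of Saa1 over penicillin mice was 4.76 (27.0-fold) and over control mice 1.00 (2.00-fold). Over all probe sets the spread ran the other way, with a median SD of 0.086 in penicillin mice and 0.106 in control mice, and 39.8% of probe sets were more variable in penicillin mice. The spread of Saa1 was known when the family was chosen, so it is given without a test.

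**Figure D3:**
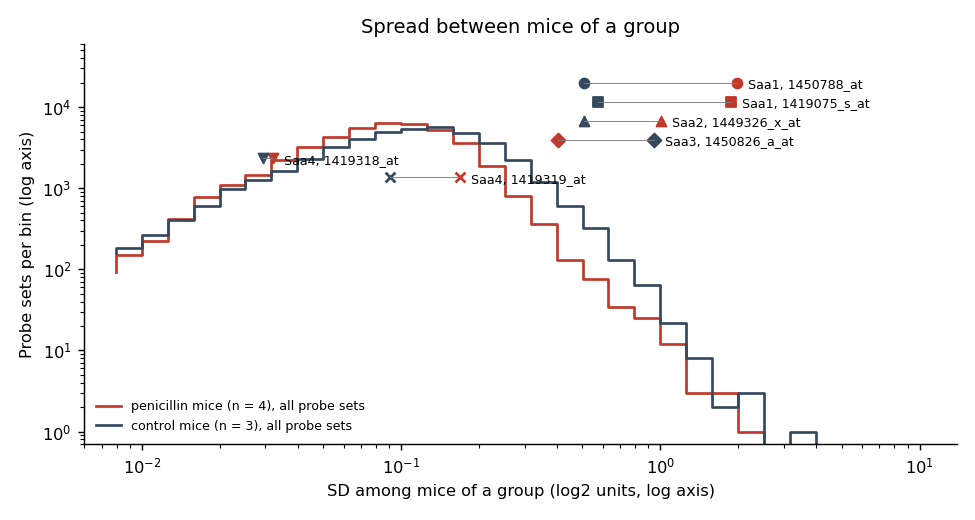
Histogram of the SD of each probe set among the mice of a group (x axis, log2 units on a log axis; y axis, probe sets per bin on a log axis), for penicillin mice (red line, n = 4) and control mice (dark line, n = 3). Symbols mark the 6 serum amyloid A probe sets, red for penicillin and dark for control mice, at heights chosen for legibility; Saa1 lies at the far right in penicillin mice, at 1.98 against 0.508 in control mice. SDs outside the plotted range, 703 in penicillin and 1210 in control mice, are not shown.

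With any one mouse left out Saa1 stayed lower, at -4.53 ± 0.53 (SE, limma adjusted p = 0.159) without penicillin mouse 1 and -2.95 ± 0.79 (SE, limma adjusted p = 0.616) without penicillin mouse 4. Without any other single mouse it lay between -3.93 and -3.43. Saa2 moved with the same mice, to -2.43 without penicillin mouse 1 and -1.60 without penicillin mouse 4.

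The 4 genes are neighbours on mouse chromosome 7 in the order Saa3, Saa4, Saa1 and Saa2. Saa4, whose groups overlapped, thus lies between members that were lower, but at its level RMA cannot tell weak expression from background. The 6 protein-coding genes before the cluster and the 6 after it all had probe sets, and their differences lay between -0.11 and 0.14. Among them Otog, Myod1 and Ldhc had group means from 4.80 to 5.42, below the median level of all probe sets (5.43). Hps5, next to Saa2, differed by -0.002 ± 0.10 (SE) and Saal1, next to Saa3, by -0.08 ± 0.06 (SE).

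**Figure D4:**
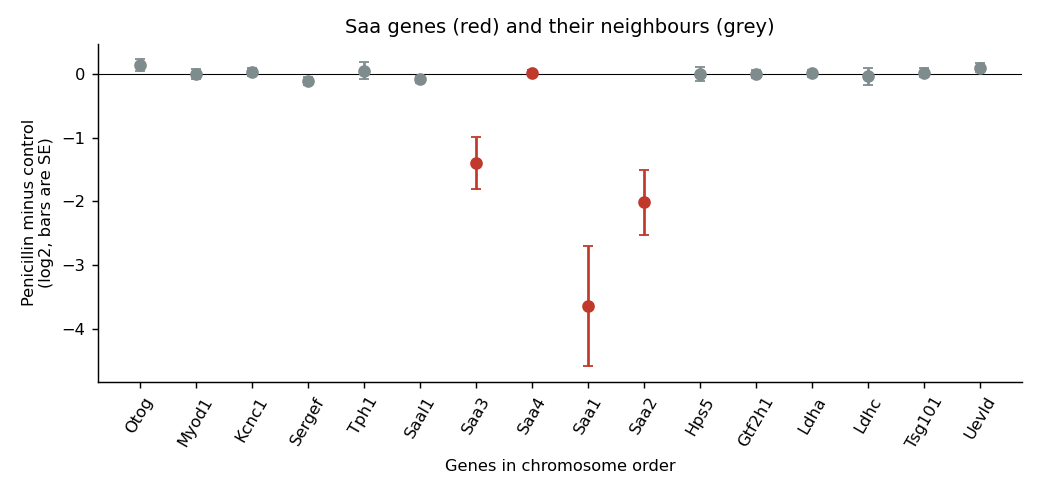
Log2 difference, penicillin minus control, with SE from limma (n = 4 penicillin and 3 control mice), for the 4 Saa genes (red) and the 6 protein-coding genes on each side (grey), in chromosome order. Saa1, Saa2 and Saa3 lie between -3.65 and -1.40, and Saa4 and the 12 neighbours lie near 0. The level of Saa4 is one where RMA cannot tell weak expression from background.

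The 250 bases before the transcription start of each gene are shown as a description of the family. Saa1 and Saa2 have near-identical promoters, whereas Saa3 and Saa4 do not. The probe sets of Saa1 and Saa2 are not independent readings, and a link of their common variation to the promoters was not tested. All 4 genes were matched by symbol in a RefSeq promoter table of build GRCm38.p6. The windows are chr7:46742981-46743230 for Saa1 (minus strand), chr7:46751583-46751832 for Saa2 (plus strand), chr7:46715677-46715926 for Saa3 (minus strand) and chr7:46732604-46732853 for Saa4 (minus strand). Capitals mark matches to the C/EBP motif TTNNGNAA on either strand, since C/EBP factors are known inducers of acute-phase genes.
Saa1: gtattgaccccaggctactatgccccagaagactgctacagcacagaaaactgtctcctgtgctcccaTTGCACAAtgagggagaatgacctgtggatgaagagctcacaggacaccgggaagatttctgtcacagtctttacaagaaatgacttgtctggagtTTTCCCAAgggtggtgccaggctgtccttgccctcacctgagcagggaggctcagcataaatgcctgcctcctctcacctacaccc
Saa2: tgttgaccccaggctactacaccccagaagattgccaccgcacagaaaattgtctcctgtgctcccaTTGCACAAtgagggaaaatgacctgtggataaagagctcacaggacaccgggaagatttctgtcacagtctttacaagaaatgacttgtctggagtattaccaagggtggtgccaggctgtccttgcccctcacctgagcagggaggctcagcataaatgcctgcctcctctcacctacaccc
Saa3: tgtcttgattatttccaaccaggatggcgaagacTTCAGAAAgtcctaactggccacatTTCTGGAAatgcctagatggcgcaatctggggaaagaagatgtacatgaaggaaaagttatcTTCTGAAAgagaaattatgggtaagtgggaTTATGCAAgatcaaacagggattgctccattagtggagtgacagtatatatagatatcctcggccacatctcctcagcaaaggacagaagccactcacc
Saa4: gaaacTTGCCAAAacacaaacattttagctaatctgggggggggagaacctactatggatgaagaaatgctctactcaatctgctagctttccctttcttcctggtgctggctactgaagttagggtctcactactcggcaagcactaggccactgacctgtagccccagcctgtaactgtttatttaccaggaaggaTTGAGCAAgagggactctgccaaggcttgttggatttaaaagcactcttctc
In a global alignment Saa1 and Saa2 shared 238 of 249 aligned bases (95.6%). Identity to Saa1 was 75.1% for Saa3 and 73.6% for Saa4, with 90 and 98 gapped columns. The C/EBP motif matched 2 times in Saa1, 1 time in Saa2, 4 times in Saa3 and 2 times in Saa4, and it is held by 36.8% of 32851 RefSeq windows of the same length. The match TTGCACAA is common to Saa1 and Saa2, beginning 182 and 183 bases before the start. The TATA-like motif ATAAAT lies 30 bases before the start of Saa1 and of Saa2 and was not found in the windows of Saa3 and Saa4 (12.5% of all windows hold it). Only this spelling was searched, so other TATA forms, such as the stretch tatatata in the Saa3 window, were not counted. The STAT motif TTCNNNGAA was found in none of the 4 windows (7.02% of all windows hold it). A match is a description of letters and not a binding site.

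Other cells of the sample could carry Saa3 or Saa1 signal, so marker levels are given beside them, as sums of the linear signal over each list. Macrophage markers (7 of 7 genes measured) summed to 5978 to 7073 in penicillin mice and 7198 to 8991 in control mice, without overlap, and were highest in control mouse 3, where Saa3 was highest. The gene of that list with the highest mean was at log2 12.19 over the 7 mice, so the sums rest largely on it. Csf1r, C1qa and C1qb differed by -0.34, -0.35 and -0.29, and C1qb overlapped between the groups. Adipocyte markers (4 of 6) summed to 3159 to 5845 in penicillin mice and 3983 to 10375 in control mice, the maximum again in control mouse 3. The adipocyte genes Adipoq, Retn and Cidec differed by -0.43, -0.37 and -0.25. Colon markers (8 of 8) summed to 31812 to 36698 in penicillin mice and 35869 to 51170 in control mice, with control mouse 3 highest once more. Ang4, which Paneth cells of the small intestine also make, supplied 53.8% to 57.2% of that sum in penicillin mice and 42.2% to 55.5% in control mice. Without Ang4 the other 7 genes summed to 14012 to 16675 in penicillin mice and 15963 to 29560 in control mice. These 7 include Car1, at log2 14.10 in control mouse 3, so the highest sum rests largely on that gene. Of the colon genes, the water channel Aqp8 was at 8.27 in that mouse and between 3.86 and 4.29 in the other 6, and Ang4 and Hoxd13 differed by -0.12 and 0.13. In the penicillin group Car1, a colonocyte enzyme named after its value was seen, was at 10.82 in mouse 1 and between 5.11 and 7.63 in the other 3, against 7.38, 7.30 and 14.10 in control mice 1 to 3. Car1 was thus highest in the control mouse with the lowest Saa1 of its group. Among penicillin mice it went the other way, being highest in mouse 1, which had the highest Saa1 of its group. The part of these cells in the Saa differences was not tested. Neutrophil markers (7 of 8) were all below the median level of the array, at sums of 115 to 131 in penicillin mice and 111 to 125 in control mice, with Ngp, Mpo and Csf3r at differences of 0.16, 0.17 and -0.10.

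Among markers of the labelled tissue, the ileal bile acid carrier Fabp6 was at 14.50 ± 0.115 (SD, n = 4) in penicillin mice and 14.41 ± 0.109 (SD, n = 3) in control mice. The bile acid transporter Slc10a2 differed by 0.82 and the hormone Fgf15 by -1.14, and neither passed in limma (adjusted p = 0.417 and 0.594). The growth notes mention livers. Hepatocyte markers (7 of 7) summed to 5164 to 6364 in penicillin mice and 5039 to 7262 in control mice, with Serpina1b, Ttr and Cyp2e1 at 0.61, 0.59 and -0.75.

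Of the cytokines, receptors, factors and feedback genes listed for the induction of Saa and its signalling, 31 of 35 could be measured. None passed in limma, and the median difference was -0.03. At an unadjusted p under 0.05, 3 were lower and 0 higher, where over all 18193 genes, each by its highest probe set, 5.19% were lower and 4.41% higher. Nfkbiz, an inducible NF-kB cofactor, was at 9.26, 9.50, 9.29 and 9.14 in penicillin mice 1 to 4, against 10.44, 10.10 and 10.17 in control mice 1 to 3. The groups were apart and each was narrow, unlike Saa1, and its difference of -0.94 ± 0.11 (SE) missed the threshold (limma adjusted p = 0.0503). Socs3, a feedback inhibitor induced by STAT3 and not an inducer, differed by -0.72 ± 0.25 (SE). Il6st, the shared receptor chain of the IL-6 family, differed by -0.28 ± 0.08 (SE). The 3 genes counted as lower were Nfkbiz, Il6st and Socs3. Stat3 differed by -0.25, Cebpb by -0.09 and Il22ra1, the IL-22 receptor chain of epithelium, by 0.23 ± 0.17 (SE, limma adjusted p = 0.683). For Il22ra1 control mice 1 and 2 lay within the penicillin range. Only control mouse 3, at 8.19, lay below every penicillin mouse, the lowest of which was at 8.73. The difference of Il22ra1 thus rests largely on control mouse 3. For Stat3 control mice 1 and 2, at 9.87 and 9.97, lay above every penicillin mouse, and control mouse 3, at 9.24, lay below every one. Il22 is not analysed here.

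A list of epithelial response genes (23 of 25 measured) had 0 members past the threshold in limma. Its median difference was -0.44, against -0.0025 over all genes. Whether its members respond to the same signals as Saa1 was not tested. At an unadjusted p under 0.05, 10 were lower and 1 higher, against 5.19% and 4.41% of all genes. Reg3g, an antibacterial lectin, was at 14.23, 13.90, 13.53 and 13.50 in penicillin mice 1 to 4, against 14.36, 14.35 and 14.22 in control mice 1 to 3. The penicillin mice covered a far smaller range than for Saa1, near the top of the scale, and mouse 1 overlapped the control mice. Its difference was -0.52 ± 0.17 (SE, limma adjusted p = 0.504). Reg3b differed by -0.18, Lcn2 by -0.31, Ubd by -1.61, Defb1, a beta-defensin, by -1.18 and Pla2g2a, a secreted phospholipase, by -0.62. For Lcn2 control mice 1 to 3 were at 4.52, 4.36 and 5.48 and penicillin mice at 4.30 to 4.57, so only control mouse 3 lay above them.

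Of 29 other acute-phase genes 26 were measured, 0 passed in limma, and the median difference was 0.08. At an unadjusted p under 0.05, 1 was lower and 1 higher, near the 5.19% and 4.41% of all genes. Lbp, which binds bacterial lipopolysaccharide, differed by -0.45 ± 0.13 (SE), Fgg by 0.21, Orm2 by 0.14 and haptoglobin (Hp) by -0.37 ± 0.33 (SE). Orm2, at means of 3.09 in penicillin and 2.95 in control mice, lay below the 25th percentile of all probe sets (3.98). Fgg, the gene counted as higher, lay little above it, at 4.48 and 4.26. At such levels RMA cannot tell weak expression from background. Of genes for receptors of serum amyloid A and for lipoprotein partners, 24 of 25 were measured, 0 passed in limma, and the median was -0.13. At an unadjusted p under 0.05, 5 were lower and 0 higher, against 5.19% and 4.41% of all genes. The candidate receptors Tlr2, P2rx7 and Tlr1 differed by -0.46, -0.38 and -0.85, while Fpr2, another receptor, differed by 0.09 and Scarb1 by -0.19. Apoa1, the main protein of high-density lipoprotein, differed by 0.36 ± 0.21 (SE). It was at 14.28, 14.33 and 13.41 in control mice 1 to 3, against 14.29 to 14.50 in penicillin mice, so the difference rests largely on control mouse 3.

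The genes most like Saa1 were ranked by Pearson correlation with 1450788_at over the 7 mice, among 653 genes outside the family with a mean above the array median and a range of at least log2 1. The group difference itself enters this measure, the mice form clusters, and r is given as a description without a p. The most alike outside the family was Mal, a membrane proteolipid, at r = 0.939, with 7.67, 6.997, 6.31 and 6.501 in penicillin mice 1 to 4 against 8.49, 8.45 and 8.67 in control mice 1 to 3. Mptx1, a Paneth cell pentraxin, followed at r = 0.889. The next 8 were Igkv6-14, Trbv1, Nfkbiz, Slc9a3, Iglv1, 2210407C18Rik, Ifit1bl1 and Dmbt1, with r from 0.879 down to 0.838. Nfkbiz is represented here by another of its 3 probe sets than above. That probe set differed by -0.96 ± 0.15 (SE, limma adjusted p = 0.140). Among the 10, Slc9a3, the sodium-hydrogen exchanger, was the one called in limma (difference -1.08 ± 0.10 SE, adjusted p = 0.0291). None of them spread as widely over penicillin mice as Saa1, the largest SD being 0.831 for Igkv6-14. Of the 802 probe sets compared, 15 (1.87%) placed the penicillin mice in the same order as Saa1, where each of the 24 possible orders would hold 4.17% if all were equally frequent. The most opposed were Krt12, Ercc8, Cda, Aadac and Fras1, with r from -0.961 to -0.845. Krt12, a keratin, was at 5.85, 6.06, 6.46 and 6.77 in penicillin mice 1 to 4, against 5.53, 5.58 and 5.50 in control mice 1 to 3.

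**Figure D5:**
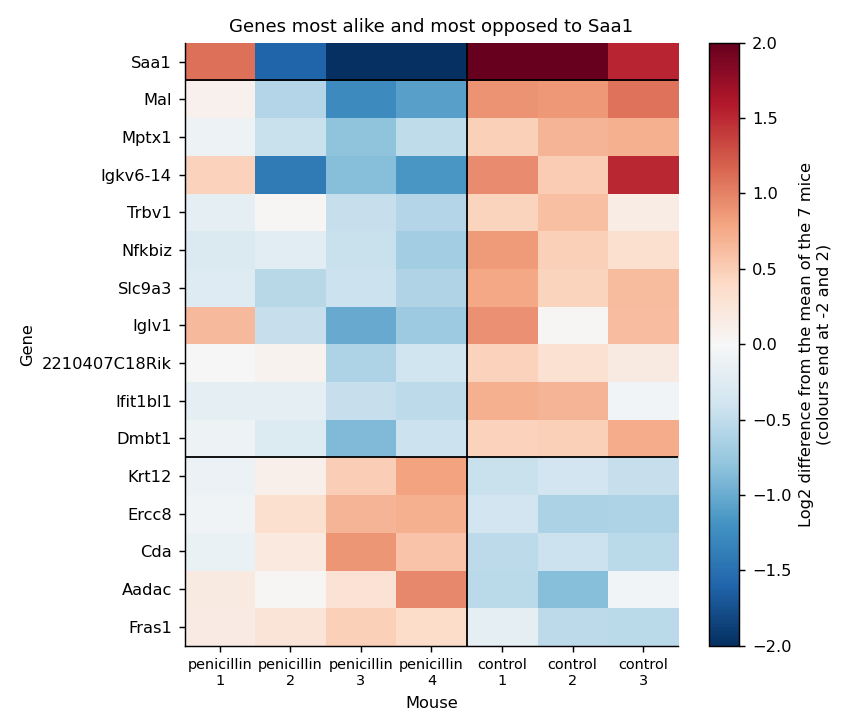
Log2 difference of each mouse from the mean of the 7 mice (colour, ending at -2 and 2), for Saa1 (top row), the 10 genes with the highest correlation to it and the 5 with the lowest. Columns are mice, the 4 penicillin mice left of the 3 control mice; the contrast between mice is strongest in the Saa1 row.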

How the data were processed

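Biotin-labelled total RNA of 7 ileal samples was measured on Affymetrix mouse arrays. The authors deposited 1 log2 value for each probe set and mouse, computed by RMA with affy according to the submitters' processing notes; RMA corrects background, equalises array distributions and summarises probes. Tool versions were not given in the sources used. Values lay between 2.50 and 14.7. The number of arrays limits precision.

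Gene names came from the platform annotation, updated by gene ID through RefSeq (GRCm38.p6). Of 45101 probe sets, 34958 had 1 gene, 932 several and 9211 none listed, and no probe set joined a Saa gene to another gene. The 64 manufacturer's controls were left out and 45037 probe sets tested without a filter on low values, by limma 3.58.1 in R 4.3.3 (lmFit, eBayes without trend, two-sided, Benjamini-Hochberg, adjusted p under 0.05). The fit was tested on simulated data. Differences are penicillin minus control in log2 units with the SE of the fit. For genes of the lists and neighbours, the probe set with the highest mean stood for the gene.

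The members, lists and tests were chosen with earlier results of these data known. The text names, from each list, the genes past the threshold and the 3 with the largest moderated statistic, a set of 13 further genes whatever their values, and the 10 genes most alike and 5 most opposed to Saa1. Alternatives were other normalisations, filters, priors, weights, 1 probe set per gene, a replicate block, arrays left out and a threshold of 0.1. Alignments used Biopython 1.88 and figures matplotlib 3.10.9.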

Additional observations from a re-analysis of the deposited data

Results flagged for a closer look

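In the penicillin group Fgf15, an ileal hormone induced by bile acids, was at 8.73 in mouse 4 and between 6.98 and 7.13 in the other 3. Control mice 1 to 3 were at 8.93, 9.45 and 7.49. The other 3 penicillin mice thus lay below every control mouse, and penicillin mouse 4 lay within the control range. The gap of penicillin mouse 4 to the next was 0.914 of the range of the penicillin group, above the critical value of Dixon's test for 4 samples. Of 46 genes and probe sets screened this was the one set apart in this way, where chance would set apart about 5% of groups. Mouse 4 was also the one with the lowest Saa1. None of the 6 Saa probe sets had a penicillin mouse set apart by this test.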

How the results depend on the processing

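The 4 probe sets of Saa1, Saa2 and Saa3 stayed lower in penicillin mice, and 0 of the Saa probe sets was called in limma, under every alternative in which they were tested, with 4 of the family at an unadjusted p under 0.05 (5 without penicillin mouse 3, the fifth being a higher Saa4, and 3 with 1 probe set per gene). Over these alternatives Saa1 (1450788_at) ranged from -4.53 to -2.95 (adjusted p from 0.159 to 0.811), Saa2 from -2.43 to -1.60 (0.288 to 0.756) and Saa3 from -1.72 to -0.67 (0.318 to 0.811). The value of -0.67 was without both mice numbered 3. The count of 17 calls over the array was 2 with 1 variance per group, 1 with an unmoderated statistic, 0 without both mice numbered 3, 35 at an adjusted p under 0.1, and between 0 and 29 with 1 array left out. With fewer arrays fewer degrees of freedom remain; the cause of the other changes was not tested. With the replicate number as a block 0 probe sets were called. No control mouse is numbered 4, so penicillin mouse 4 adds nothing to the difference in that fit. Saa1 differed there by -2.95 (limma adjusted p = 0.811), the same difference as without penicillin mouse 4. Same-numbered mice did not deviate together (correlations -0.093, 0.001 and -0.331), so the numbers are not taken as pairs. RMA values give no detection call, which limits Saa4.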

Other observations

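Besides the Saa probe sets, 16 of the 19 probe sets with an SD of at least 1 among penicillin mice belonged to other genes or to no single gene, all looked at after their values were seen. Slc6a14, an amino acid transporter of epithelium, was at 9.72, 9.25, 8.26 and 7.38 in penicillin mice 1 to 4, against 9.25, 9.37 and 9.36 in control mice 1 to 3. Penicillin mouse 1 was above every control mouse, and mice 3 and 4 were below every one. Lct, the lactase of the brush border, was at 7.47 in penicillin mouse 3 and between 4.37 and 5.11 in the other 3, against 4.36 to 4.83 in control mice. Fabp1, a fatty acid binding protein of the proximal gut, was highest in penicillin mouse 4 at both of its probe sets in this group, at 10.08 and 11.08. Gkn1, Gkn2 and Acaa1b were also highest in that mouse, at 6.42, 6.56 and 9.51. In every other mouse they were at most 4.68, 4.89 and 8.24. Whether this relates to Saa1, which was lowest in the same mouse, was not tested. Pla2g4c, a phospholipase, was at 12.51 in penicillin mouse 3 and between 8.91 and 9.06 in the other 3, against 9.82 to 12.09 in control mice.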
